A study of Mus musculus with 18 samples.

Results

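The genes described here are 44 genes of protein folding and stress signalling, taken by symbol from a table of 28442 mouse genes. They hold 11 chaperones and co-chaperones of the endoplasmic reticulum (ER) lumen, 4 protein disulfide isomerases, 4 genes of ER-associated degradation, 3 stress sensors, 5 stress transcription factors, 6 targets of the amino acid and integrated stress responses, 9 cytosolic heat shock proteins and the 2 subunits of the mitochondrial chaperonin. All 44 symbols were found. Their levels were measured by bulk poly-A RNA-seq in 6 non-tumoral livers and 12 advanced tumors of Alb-R26Met mice, and the question was how the tumors differed from the livers.

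Both groups carried the same alleles: a Cre recombinase under the Albumin promoter, which is active in hepatocytes, and a conditional mouse-human chimeric Met transgene at the Rosa26 locus. The livers thus carried the transgene too, and came from mice that had not developed tumors. All mice were males of a C57BL/6 and 129Sv cross, and none of the samples used here was labelled as treated. The livers came from mice of 52 to 71 weeks and the tumors from mice of 49 to 72 weeks. In all, 17 mice gave the 18 samples, tumors 11 and 12 being from the same animal. Sample names carried a tag, E19 (2 livers and 7 tumors) or E20 (4 livers and 5 tumors), and what it stands for is not given in the sources used here.

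In background terms, proteins that enter the ER are folded by chaperones and joined by disulfide bonds there, and hepatocytes secrete a large amount of plasma protein through it. When unfolded proteins accumulate, 3 sensors in the ER membrane (the products of Ern1, Eif2ak3 and Atf6) raise transcription of chaperones and degradation factors and slow translation. The sensor encoded by Eif2ak3 shares with other kinases the integrated stress response, in which the transcription factor encoded by Atf4 raises genes of amino acid supply such as Asns. Cytosolic heat shock proteins answer to a separate transcription factor, the product of Hsf1.

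Values are TPM, a transcript abundance per fixed total of transcripts, corrected for gene length, rounded to whole numbers when deposited and here divided by 1 scaling factor per sample (scaled TPM). The deposited values of a sample summed to between 835144 and 907513, and the reads behind a value are not known from TPM. Siglece took 17.9% to 29.5% of the total in the livers and 21.5% to 53.4% in 11 tumors, but 82.9% in tumor 2, where only 8718 genes were above 0. Its lowest scaled TPM, 111400 in the livers and 130200 in the tumors, exceeded the highest sum of the hepatocyte markers given below. Whether these values are transcripts of that gene was not tested. The scaling factor of tumor 2 was 0.191, against 0.812 to 1.42 in the other samples, so that 1 deposited TPM there became 5.25 scaled TPM and low values are coarse. Met, the transgene's gene, ran from 16.6 to 41.1 scaled TPM in the livers and from 72.0 to 152 in the tumors, with every tumor above every liver. The summed hepatocyte markers (Alb, Apoa1, Ttr, Apoc3, Cps1 and Ass1) ran from 38790 to 50740 scaled TPM in the livers and from 33660 to 72470 in the tumors. Single markers went different ways. In the fit described below 1 of the 6 was called higher in tumors and 1 lower, and 2 of the 6 differences were above 0 (median -0.26).

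All 44 genes passed the filter on low values. In a limma fit with Benjamini-Hochberg adjustment over 11452 genes, 7 of the 44 were higher in tumors at an adjusted p under 0.05, 1 was lower and 36 were not called. The 7 were Asns, Eif2ak3, Dnajb9, Atf3, Hspa5, Hsp90b1 and Pdia6, and the 1 was Hspb1. In GRCm38.p6, as RefSeq places them, Asns lies at chr6:7675165-7693209, Eif2ak3 at chr6:70844484-70905241, Dnajb9 at chr12:44205897-44210068, Atf3 at chr1:191170296-191183333, Hspa5 at chr2:34772090-34776529, Hsp90b1 at chr10:86690841-86705444, Pdia6 at chr12:17266589-17284785 and Hspb1 at chr5:135887919-135889563. Over all genes tested 9.52% were called higher and 9.61% lower (19.1% in either direction), so the share of the 44 genes called was close to the background, while 7 of their 8 calls were upward. The median log2 difference of the 44 genes was 0.33, against -0.08 over all genes tested, and 37 of the 44 differences were above 0. For none of the 44 did every tumor lie on 1 side of every liver, whereas 2.17% of all genes had every tumor above every liver and 1.07% every tumor below. Differences here and below are on the log2(scaled TPM + 1) scale, tumor minus liver, which understates the change of genes at low levels.

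**Figure D1:**
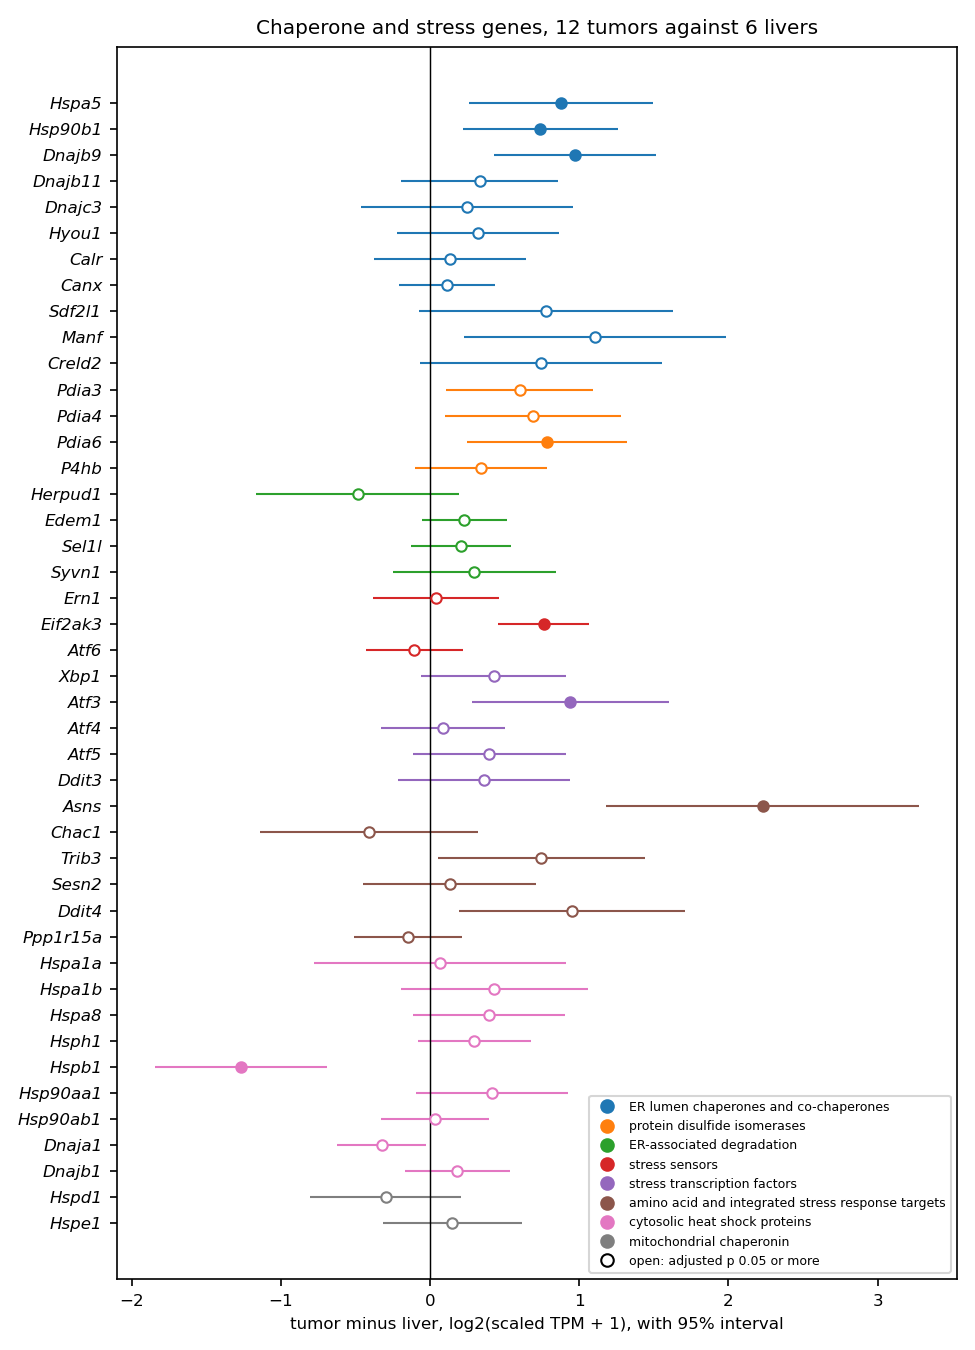
Difference between 12 tumors and 6 livers for each of the 44 genes, on the log2(scaled TPM + 1) scale on the x axis, with genes on the y axis coloured by role; points are fitted differences, bars their 95% intervals, and filled points have an adjusted p under 0.05. Asns lies farthest to the right at 2.23 and Hspb1 farthest to the left at -1.27, and all 15 ER chaperones and disulfide isomerases lie to the right of 0.

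The most abundant ER gene of the set in the livers was P4hb, a disulfide isomerase that is also a subunit of collagen prolyl hydroxylase, at a median of 946 scaled TPM. It was followed by Herpud1 (510), Hspa5 (349) and Calr (309), and among the cytosolic genes Hspa8 stood at 1019. The liver ranges of these neighbours overlapped, so their order is not firm. At the low end Chac1 and Ddit3 stood at 3.07 scaled TPM, Asns at 2.90, Hspa1b at 0.955 and Atf3 at 0, where the rounding to whole TPM limits what can be seen.

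In the ER lumen, 3 of 11 chaperones and co-chaperones rose and none fell, with a median difference of 0.74. Hspa5 encodes BiP, the main Hsp70-type chaperone of the ER and the protein that holds the stress sensors inactive. It lay between 241 and 698 scaled TPM in the livers (median 349) and between 322 and 1237 in the tumors (median 659). Tumors 3, 7 and 9 were the highest, and 5 of 12 tumors exceeded the highest liver, liver 1. The difference was 0.88 ± 0.30 (SE; adjusted p = 0.0412), a 1.84-fold rise. Hsp90b1, the ER form of Hsp90, went from a median of 245 (164 to 396) to 401 (250 to 790), a difference of 0.74 ± 0.25 (adjusted p = 0.0409). For this gene too the groups overlapped, and 6 of 12 tumors exceeded the highest liver. Dnajb9, a J-domain co-chaperone of BiP and a classical target of the Ern1 branch, went from a median of 13.8 (8.75 to 25.1) to 27.9 (15.01 to 48.5), a difference of 0.97 ± 0.26 (adjusted p = 0.0113). Tumor 7 was the highest and tumor 12 the lowest for this gene, and 6 of 12 tumors exceeded all livers. Within the tags the difference of Dnajb9 was 1.62 ± 0.38 in E19 (adjusted p = 0.0211) and 0.43 ± 0.27 in E20 (adjusted p = 0.466), that of Hspa5 0.97 ± 0.43 (adjusted p = 0.163) and 0.70 ± 0.41 (adjusted p = 0.420), and that of Hsp90b1 0.88 ± 0.41 (adjusted p = 0.178) and 0.60 ± 0.32 (adjusted p = 0.375). Without scaling between samples all 3 stayed above 0 but were no longer called, with adjusted p of 0.256, 0.361 and 0.496 in that order.

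The remaining 8 genes of the lumen did not pass the test, though their fitted differences were all above 0. Manf, a secreted ER-resident protein with a protective role in stressed cells, had a larger difference than Hspa5, 1.103 ± 0.42, but an adjusted p of 0.0726. Its values ran from 38.5 to 188 in the livers and from 57.8 to 450 in the tumors, so it varied widely in both groups. Sdf2l1, a partner of the BiP cycle, had a difference of 0.78 ± 0.41 (adjusted p = 0.205) and reached 101 scaled TPM in tumor 3 and 85.9 in tumor 9, against 7.53 to 56.1 in the livers. Creld2, an ER-stress-induced protein with isomerase activity, had 0.74 ± 0.39 (adjusted p = 0.201) and likewise peaked in tumors 3 and 9. Dnajb11 (0.33), Hyou1 (0.32), Dnajc3 (0.25), Calr (0.13) and Canx (0.11), which are co-chaperones, a nucleotide exchange chaperone and the lectin chaperones of the calnexin cycle, had the smallest differences. For calnexin (Canx) the 95% interval ran from -0.21 to 0.44 and for calreticulin (Calr) from -0.37 to 0.64. The fitted differences of both turned below 0 without scaling between samples, Canx to -0.06 and Calr to -0.05.

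Of the 4 disulfide isomerases, which form and rearrange disulfide bonds, Pdia6 rose and the other three were not called. Pdia6 went from a median of 100 (62.1 to 168) to 143 (94.8 to 306), a difference of 0.78 ± 0.26 (adjusted p = 0.0368). Tumors 3 and 9, at 306 and 304, and tumor 2, at 268, stood well above the rest. It was 0.64 ± 0.41 within E19 (adjusted p = 0.329), 0.83 ± 0.34 within E20 (adjusted p = 0.232) and 0.60 ± 0.41 without scaling (adjusted p = 0.431). Pdia4 had a difference of 0.69 ± 0.28 (adjusted p = 0.0971), Pdia3 0.60 ± 0.24 (adjusted p = 0.0804) and P4hb 0.34 ± 0.21 (adjusted p = 0.290).

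The promoters of Hspa5, Hsp90b1 and Pdia6, the 3 called genes of the ER lumen that hold an ER stress response element there, show the sequence by which this group of genes is known to answer unfolded proteins. The element searched, on both strands, was CCAAT followed after 9 bases by CCACG, the published site of the transcription factors NF-Y and the products of Atf6 and Xbp1, in RefSeq promoters of GRCm38.p6 that run from 250 bases before to 50 after each start. Capitals mark the element, and each stretch is read on the strand of its gene.
Hspa5: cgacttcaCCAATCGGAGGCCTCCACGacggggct
Hsp90b1: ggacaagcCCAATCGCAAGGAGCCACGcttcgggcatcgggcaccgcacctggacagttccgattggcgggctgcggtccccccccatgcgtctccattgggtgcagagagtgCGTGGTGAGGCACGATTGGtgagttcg
Pdia6: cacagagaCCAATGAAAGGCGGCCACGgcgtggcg
The stretch of Hspa5 is chr2:34772017-34772051 on the plus strand and ends 39 bases upstream of the start. That of Hsp90b1 is chr10:86705525-86705664 on the minus strand and holds 2 elements in opposite orientation. That of Pdia6 is chr12:17266483-17266517 on the plus strand. The element was in 8 of the 44 promoters of the 38 genes of the set with a promoter (Calr, Canx, Creld2, Dnajc3, Hsp90b1, Hspa5, Pdia6 and Syvn1), against 0.119% of all 32851 promoters. The set was chosen as genes of folding and stress responses, so this share, like those of the other elements below, is not a test. It stood in genes that were called and in genes that were not, and Dnajb9, which rose, had no match in its window. No promoter was matched for Atf6, Hsp90aa1, Hsp90ab1, Hspa8, Hyou1 and Manf.

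Within each group the ER chaperones and isomerases followed a few samples. Tumor 3 or tumor 9 was the highest tumor for 14 of these 15 genes, whereas tumor 3 was the highest tumor for 5.13% and tumor 9 for 6.58% of all genes tested. Both tumors carried the tag E19. Liver 1 was the highest liver for 13 of the 15 genes and for 27 of all 44, against 29.7% of all genes tested. It had 698 scaled TPM of Hspa5, while the next liver, liver 5, had 412. Liver 1 also had the highest summed level of the macrophage and monocyte markers Adgre1, Cd68, Ly6c2, Ccr2 and Gpnmb, 188 scaled TPM against a median of 46.4 over the 6 livers. The summed Kupffer cell markers were instead highest in liver 5, at 98.4 scaled TPM. The part of macrophages and monocytes in the values of liver 1 was not tested, and in bulk samples fewer cells of a type and less RNA per cell cannot be told apart. The summed markers of plasma cells, which are rich in ER, (Jchain, Mzb1, Tnfrsf17 and Sdc1) ran from 65.8 to 113 in the livers and from 53.4 to 106 in the tumors. Tnfrsf17 was at 0 in every sample, and only 2 of the 4 genes passed the filter on low values. How far this sum reflects plasma cells was not tested. Of the pancreatic acinar markers, Cpa1, Pnlip, Ctrb1 and Prss2 were at 0 in every sample, and the remaining marker, Cela2a, reached 2.57 scaled TPM in the livers and 0.987 in the tumors.

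**Figure D2:**
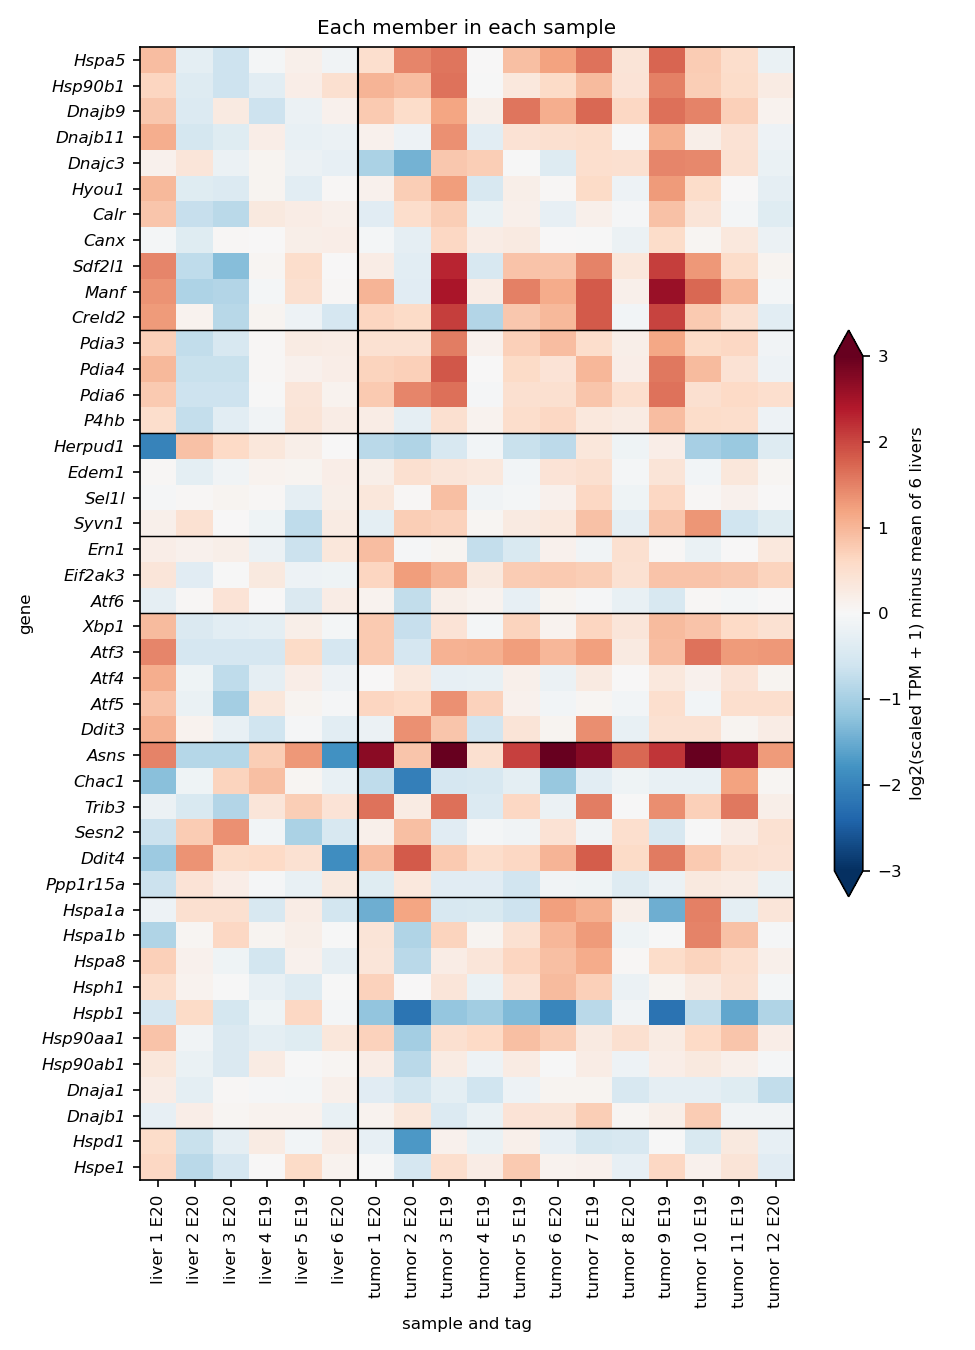
Heat map of the 44 genes (y axis, ordered by role) in 6 livers and 12 tumors (x axis, with their tags), coloured by log2(scaled TPM + 1) minus the mean of the 6 livers. Tumors 3, 7 and 9 are the reddest columns in the ER lumen block, liver 1 is the reddest liver there, and Asns is the reddest row.

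**Figure D3:**
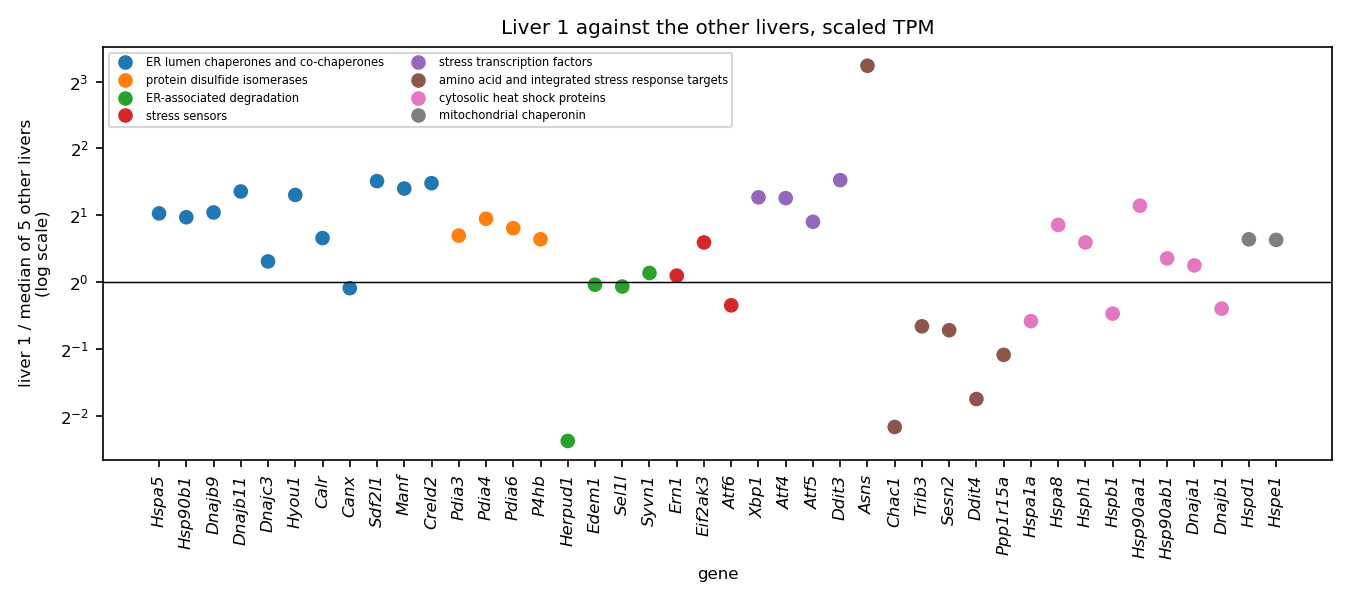
Ratio of liver 1 to the median of the other 5 livers in scaled TPM (y axis, log scale) for the genes where both are above 0 (x axis, coloured by role). Most ER chaperones, isomerases and stress transcription factors lie above 1, Hspa5 at 2.04 and Dnajb11 at 2.56, and Herpud1 lies far below.

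Hspa5, Hsp90b1, Dnajb9 and Pdia6 kept their calls without liver 1 and without tumor 2, and leaving out either sample added calls. Without liver 1, 10 of the 44 genes were called higher (10.8% of all genes) and 2 lower (11.3%); the added calls were Manf (1.37, adjusted p = 0.0250), Pdia3 (0.75, adjusted p = 0.0289), Pdia4 (0.88, adjusted p = 0.0287) and, downward, Herpud1. Without tumor 2, 9 genes were called higher (13.7% of all genes) and 1 lower. Without both, 14 were called higher (16% of all genes) and 2 lower (15.6%), with Sdf2l1, Xbp1, Hsp90aa1 and Hspa8 among them. In the other direction, Hspa5 lost its call in 10 of 18 fits that each dropped 1 sample, Hsp90b1 in 8 and Pdia6 in 7, all on dropping other samples. Their differences stayed above 0 in all 18 fits. Hspa5 and Hsp90b1 also lost their calls with the tag or age as covariate. Dnajb9 kept its call in all 18. Without scaling between samples 2 of the 44 genes were called higher (5.03% of all genes) and 1 lower (5.04%). Over livers and tumors 1 to 6, the fit with the replicate number as a block called 3 higher (6.23% of all genes) and 1 lower (6.77%), and the same fit without it 3 (5.79%) and 1 (5.78%).

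**Figure D4:**
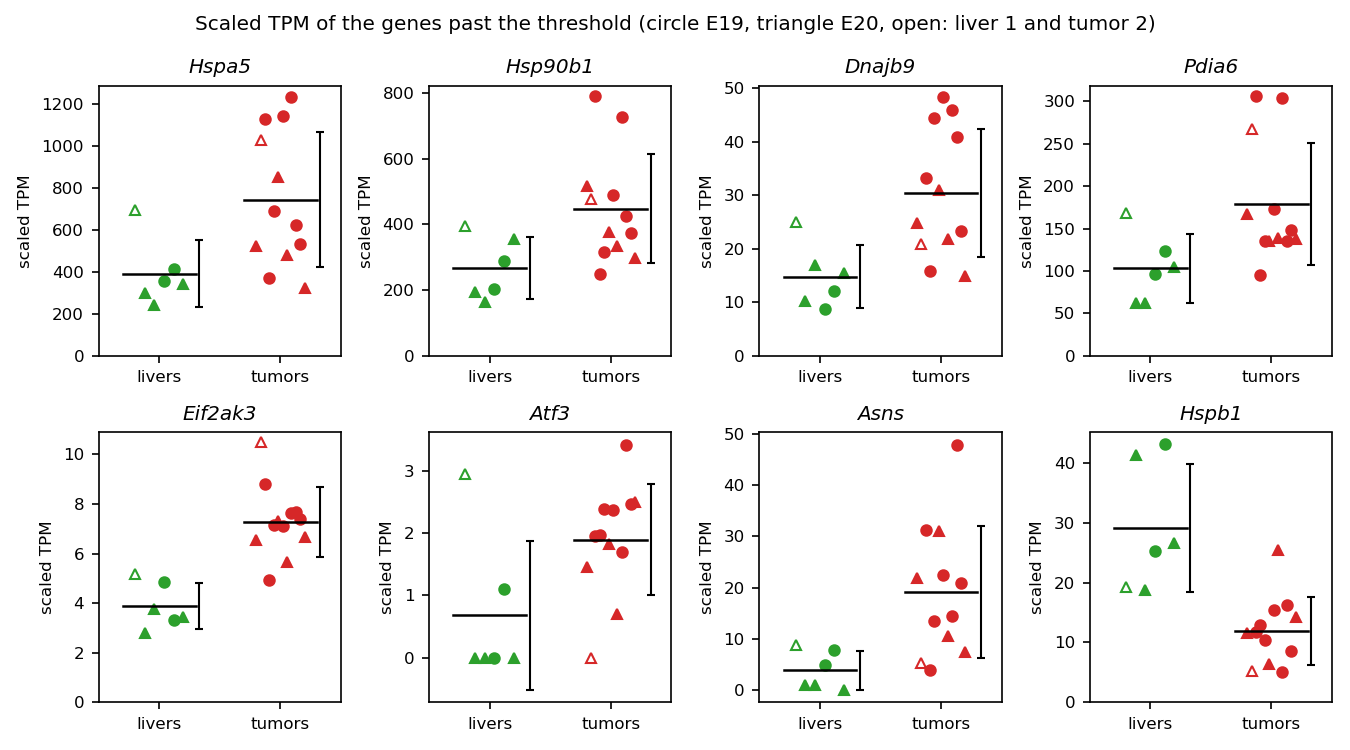
Scaled TPM (y axis, starting at 0 for all genes but those with values at 0) of the 8 genes past the threshold in 6 livers and 12 tumors (x axis); circles are E19 and triangles E20 samples, open symbols liver 1 and tumor 2, lines the group means and bars ± 1 SD. The groups overlap for all 8 genes, least for Eif2ak3, where 11 of 12 tumors exceed all livers, and for Hspb1, where 11 of 12 lie below all livers.

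The genes of ER-associated degradation, which remove misfolded proteins from the ER, were not called: 0 of 4 passed in either direction in the limma fit and 0 had an unadjusted p under 0.05, with a median difference of 0.22. Edem1, a mannosidase-like lectin that hands over misfolded glycoproteins, had 0.23 ± 0.14, and 7 of 12 tumors exceeded all livers (adjusted p = 0.271). Sel1l (0.21) and Syvn1 (0.30) encode the adaptor and the ubiquitin ligase of 1 complex. Herpud1, an ER membrane protein that recruits this ligase, went the other way with -0.48 ± 0.33 (adjusted p = 0.339). Liver 1 held 104 scaled TPM of Herpud1 while the other livers held 428 to 775, and the tumors ran from 196 to 538. Without liver 1 the difference was -0.89 ± 0.24 (adjusted p = 0.0106), so the call on Herpud1 turned on this sample.

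Among the stress sensors Eif2ak3 rose, and Ern1 and Atf6 were not called. Eif2ak3 encodes PERK, the kinase that phosphorylates the translation factor eIF2-alpha in response to unfolded protein in the ER. It lay between 2.81 and 5.17 scaled TPM in the livers (median 3.596) and between 4.94 and 10.5 in the tumors (median 7.23), and 11 of 12 tumors exceeded all livers. Tumor 4 was the exception. The highest tumor value was that of tumor 2, which comes from 2 deposited TPM. The difference was 0.76 ± 0.15 (adjusted p = 0.000863), it was 0.72 ± 0.13 without tumor 2 (adjusted p = 0.000352), and its call held in all 18 fits that dropped a sample. Within E19 it was 0.70 ± 0.20 (adjusted p = 0.0464) and within E20 0.79 ± 0.22 (adjusted p = 0.0731). Without scaling it was 0.62 ± 0.29 and not called (adjusted p = 0.194). Ern1, the RNase and kinase that splices Xbp1 mRNA, had 0.04 ± 0.20 with an interval of -0.39 to 0.46. Atf6, a membrane-bound transcription factor freed by cleavage, had -0.10 ± 0.16 with an interval of -0.43 to 0.22.

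Of the 5 stress transcription factors only Atf3, an early stress-response repressor and activator, was called. It was listed at 0 in 4 of 6 livers, at 1.11 in liver 5 and at 2.95 in liver 1, and ran from 0 in tumor 2 to 3.42 in tumor 10 (median 1.96). The fitted difference of 0.94 ± 0.32 (adjusted p = 0.0414) rests on values of 0 to 4 deposited TPM and its call was lost in 13 of the 18 fits that dropped a sample. With the mean of tumors 11 and 12, which share a mouse, as 1 value it was 0.91 (adjusted p = 0.0601), and with the tag as covariate 0.83 (adjusted p = 0.0648), neither of them called. Within E19 it was 1.18 ± 0.27 (adjusted p = 0.0198), and in E20 alone Atf3 did not pass the filter. Immediate-early genes, which tissue handling also induces, were higher in tumors too, and their part in the result was not tested. Of the 14 tested, 6 rose and none fell. Their summed level was 160 to 287 scaled TPM in the livers and 232 to 513 in the tumors. Whether they followed Atf3 from sample to sample was not tested. Xbp1, the factor made active by the Ern1 product, had 0.43 ± 0.23 (adjusted p = 0.225), with medians of 82.5 and 136. Atf4 had 0.09 ± 0.20, Atf5 0.40 ± 0.25 and Ddit3, which encodes the pro-apoptotic factor CHOP, 0.36 ± 0.28, with adjusted p of 0.819, 0.292 and 0.410. Liver 1 was the highest liver for all 5 and held 119 scaled TPM of Atf4, above every tumor.

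Asns had the largest difference of the 44 genes. It encodes asparagine synthetase, which makes asparagine from aspartate and glutamine, and is a classical target of the Atf4 product. It stood at 0 to 8.86 scaled TPM in the livers (median 2.90) and at 3.95 to 47.8 in the tumors (median 17.7). Tumor 10 was the highest and tumor 4 the lowest, and 9 of 12 tumors exceeded all livers. The difference was 2.23 ± 0.50 (adjusted p = 0.00343), a 4.69-fold rise on this scale, and its call held in all 18 fits that dropped a sample. Within the tags it was 1.41 ± 0.65 in the 2 livers and 7 tumors of E19 (adjusted p = 0.175) and 2.45 ± 0.64 in the 4 livers and 5 tumors of E20 (adjusted p = 0.0622).

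The other 5 genes of this group were not called. Ddit4, an inhibitor of mTORC1 signalling, had 0.95 ± 0.36 (adjusted p = 0.0737), with livers 1 and 6 at 8.12 and 4.29 scaled TPM and all other samples above 25. Trib3, a pseudokinase induced through the Atf4 product, had 0.75 ± 0.33 (adjusted p = 0.128), and 5 of 12 tumors exceeded all livers. Chac1, which degrades glutathione, had -0.41 ± 0.35, Sesn2, a leucine-sensing stress protein, 0.13 ± 0.28, and Ppp1r15a, the phosphatase subunit that reverses eIF2-alpha phosphorylation, -0.15 ± 0.17. Thus genes of the same response had differences on both sides of 0.

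The amino acid response is known to act through a composite site, searched on both strands as TGATGNAA, which the promoters of Asns and Herpud1 hold upstream of the start. These 2 promoters are shown because the former gene had the largest rise and the latter, which also holds an ER stress response element II (searched as ATTGG, any base, then CCACG), had a difference below 0. Capitals mark the elements.
Asns: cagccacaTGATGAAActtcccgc
Herpud1: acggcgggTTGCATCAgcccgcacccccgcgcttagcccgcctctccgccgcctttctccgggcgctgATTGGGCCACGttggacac
The stretch of Asns is chr6:7693217-7693240 on the minus strand, and that of Herpud1 is chr8:94386309-94386395 on the plus strand. The composite site was in 5 of 38 genes of the set (Asns, Atf3, Chac1, Herpud1 and Trib3) and in 3.97% of all promoters, so it is frequent, and the second element was in 2 (Dnajb11 and Herpud1) and in 0.0365%. TGACGTGG, the core of the unfolded protein response element, was in none of the 38 and in 0.676% of all promoters.

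In the cytosol 1 of 9 heat shock proteins fell and none rose, with a median difference of 0.18. Hspb1, a small heat shock protein that holds unfolding proteins in solution, went from a median of 25.9 scaled TPM (18.8 to 43.1) to 11.7 (5.10 to 25.4). Tumor 8, at 25.4, was the only tumor inside the liver range, and 11 of 12 tumors lay below every liver. The difference was -1.27 ± 0.28 (adjusted p = 0.00262), or 0.415 times the liver level, and it held in all 18 fits that dropped a sample. Within E19 it was -1.52 ± 0.36 (adjusted p = 0.0211) and within E20 -1.14 ± 0.41 (adjusted p = 0.163). Of the 100-base windows in the transcripts of Hspb1, 44% also occur in other genes, most often in the pseudogene Hsp25-ps1. How reads were divided between them was not tested.

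The stress-inducible Hsp70 genes Hspa1a and Hspa1b were at or below 6.83 scaled TPM in every sample. Their differences were 0.07 ± 0.41 and 0.43 ± 0.30. Of their windows 48.6% and 49.9% also occur in other genes, most often in each other, so their values are uncertain as single genes. Hspa8, the constitutive Hsp70, had 0.39 ± 0.25 (adjusted p = 0.293) and Hsph1, its exchange factor, 0.30 ± 0.18. Hsp90aa1, the inducible cytosolic Hsp90, had 0.42 ± 0.24 (adjusted p = 0.263) with tumor 2 lowest at 36.8 scaled TPM, and 0.55 ± 0.18 (adjusted p = 0.0295) without tumor 2. Hsp90ab1, the constitutive form, had 0.03 ± 0.18, Dnajb1, the main inducible Hsp40, 0.18 ± 0.17, and Dnaja1 -0.32 ± 0.14 (adjusted p = 0.122), with 6 of 12 tumors below every liver. Other genes share 28.2% of the windows of Hspa8 and 38% of those of Hsp90aa1.

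Both subunits of the mitochondrial chaperonin, which share a bidirectional promoter, were not called: Hspd1 had -0.30 ± 0.24 and Hspe1 0.15 ± 0.22. A heat shock element (GAA, TTC and GAA with 2 bases between each, both strands) was in the promoters of 3 of 38 genes, Hspd1, Hspe1 and Hsph1, and in 0.603% of all promoters.

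**Figure D5:**
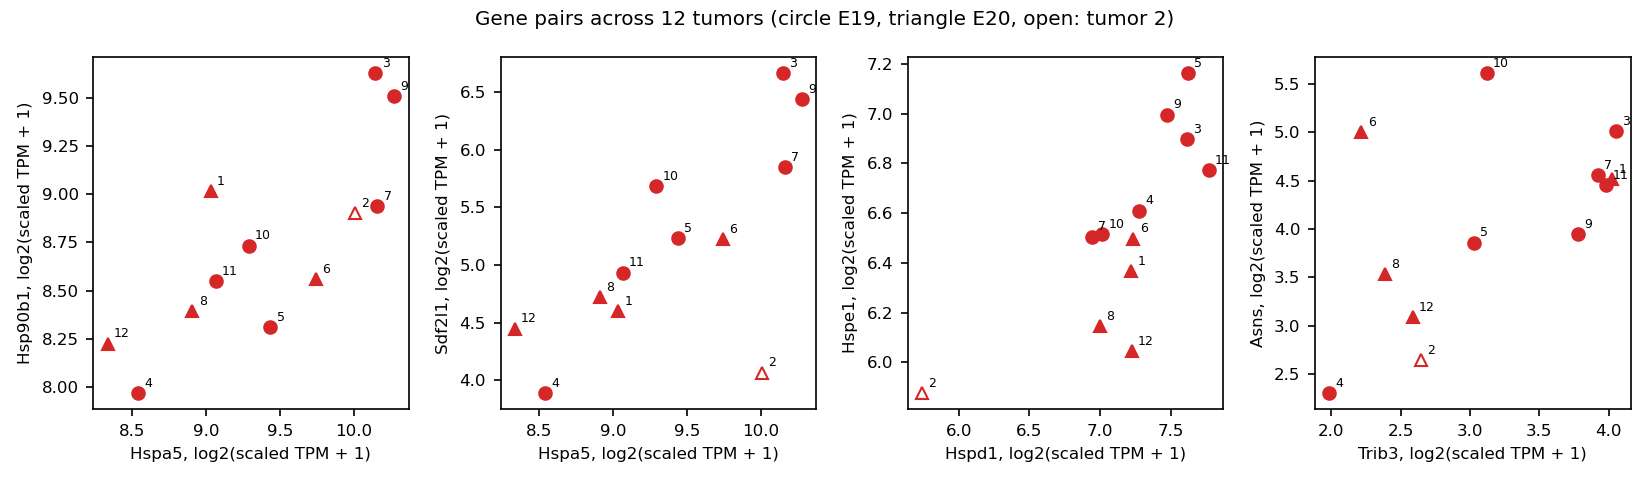
Levels of 4 gene pairs in the 12 tumors, both axes as log2(scaled TPM + 1), with the number of each tumor; circles are E19, triangles E20 and the open symbol tumor 2. Hspa5 and Hsp90b1 rise together (r = 0.788), as do Hspd1 and Hspe1 (r = 0.766), Hspa5 and Sdf2l1 do so apart from tumor 2 (r = 0.693 with it), and Trib3 and Asns scatter more widely (r = 0.545).

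Among the tumors, 8 gene pairs were compared by correlation of log2(scaled TPM + 1) over 12 tumors, 2 of which share a mouse, with 100000 permutations and adjustment over the 8 pairs. Hspa5 and Hsp90b1 had r = 0.788 (adjusted permutation p = 0.00908; rho = 0.755, adjusted p = 0.0232 by permutation). The r was 0.71 without the 2 tumors farthest from the median of Hspa5, and 0.89 over the 7 E19 tumors. Hspd1 and Hspe1 had r = 0.766 (adjusted permutation p = 0.00908; rho = 0.79, adjusted permutation p = 0.0232), 0.757 without the 2 farthest tumors and 0.77 over the E19 tumors. Both pairs stayed past the threshold whichever tumor was left out. Hspa5 and Sdf2l1 had r = 0.693 (adjusted permutation p = 0.0352; rho = 0.734, adjusted permutation p = 0.0232), 0.603 without the 2 farthest tumors and 0.931 over the E19 tumors; it lost its call when any of 9 of the 12 tumors was left out. The 5 E20 tumors are too few for a correlation of their own.

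The 5 remaining pairs did not pass. They were Trib3 with Asns (r = 0.545, adjusted permutation p = 0.136; rho = 0.566, adjusted p = 0.117), Hspa5 with Trib3 (r = 0.455, adjusted permutation p = 0.217; rho = 0.434, adjusted p = 0.218), Hspa1b with Dnajb1 (r = 0.397, adjusted permutation p = 0.263; rho = 0.399, adjusted p = 0.228), Ddit3 with Trib3 (r = 0.374, adjusted permutation p = 0.263; rho = 0.469, adjusted p = 0.207) and Hspa5 with Hspa1b (r = 0.126, adjusted permutation p = 0.696; rho = 0.28, adjusted p = 0.379). Without the 2 tumors farthest from the median of the first gene, r was 0.316, 0.344, 0.459, 0.538 and 0.135 in the same order. Over the 7 E19 tumors it was 0.67, 0.758, 0.591, 0.729 and 0.0714.

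Tumors with the 2 tags differed in 3 of the 44 genes, against 12% of all genes tested between the 5 E20 and the 7 E19 tumors. Dnajc3, a co-chaperone of BiP, was lower in E20 tumors by -1.27 ± 0.33 (log2, adjusted p = 0.0266), with values of 31.5 to 120 against 84.3 to 238 scaled TPM. Hspe1 was lower by -0.59 ± 0.18 (adjusted p = 0.0422), and its values of 57.8 to 89.4 in E20 and 89.9 to 142 in E19 tumors did not overlap. Sesn2 was higher by 0.61 ± 0.16 (adjusted p = 0.0278), with overlapping values. A test of whether the tumor minus liver difference depended on the tag called 0 of the 44 genes in the limma fit and 0 of all genes, with 3 and 326 at an unadjusted p under 0.05. Fitting E19 samples alone called 4 of the 44 genes higher and 1 lower, against 7.42% and 5.81% of all genes. E20 samples alone called 0 in either direction, against 2.72% and 1.21%, with 4 of the genes at an unadjusted p under 0.05 in the limma fit. For age, 0 of the 44 genes were called among the tumors in the limma fit, with 4 at an unadjusted p under 0.05, and 0 of all 10769 genes, with 130 at that p.

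Tumors 11 and 12, which came from 1 mouse but carried different tags, give 1 view of the spread within an animal. Tumor 11 was higher for 33 of the 44 genes. The log2 values differed by over 1 for 4 genes: Trib3 (1.39), Asns (1.37), Chac1 (1.15) and Manf (1.04). For Asns the tumors held 20.9 and 7.51 scaled TPM. Neither count was made over all genes tested, so neither can be called particular to the 44 genes. Over all samples the 44 genes had a median SD of 0.52 (log2) among livers and 0.50 among tumors, against 0.35 and 0.48 for all genes tested. Without tumor 2 the values among tumors were 0.45 and 0.35.

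Other genes of the same pathways were read from lists of related genes, whose counts stand against the 9.52% of all genes called higher and 9.61% called lower. Among ATF4 and amino acid response targets outside the 44, 10 of 39 tested rose and 4 fell, with a median difference of 0.39. Phgdh and Psat1, the first enzymes of serine synthesis, were at 0.857 and 1.48 scaled TPM at most in the livers, and reached medians of 14.9 and 10.5 in the tumors, with every tumor above every liver. Fgf21, a hepatic hormone of the fasting and stress responses, rose by 2.37 ± 0.42 (log2, adjusted p = 0.000374). Those that fell included Cth (-1.70 ± 0.28) and Cbs (-1.18 ± 0.24), which make cysteine from homocysteine, and the mitochondrial serine enzyme Shmt2 (-0.68 ± 0.20). The list thus held large differences in both directions.

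Among other ER folding factors 7 of 48 tested rose and none fell (median 0.29). Fkbp11, a prolyl isomerase of secretory cells, went from a median of 5.06 to 36.3 scaled TPM with every tumor above every liver, Nucb2, a calcium-binding protein, rose by 1.88 ± 0.35 and Kdelr3, a receptor that returns ER proteins, was listed at 0 in all livers and above 0 in 10 of 12 tumors. Among other degradation genes 0 of 26 rose and 4 fell, Marchf6 (-0.76 ± 0.19), Rnf5 (-0.72 ± 0.21) and Os9 (-0.51 ± 0.16) being the lowest. Among other sensors and factors the calls were near or below the background: 2 of 21 rose, Nupr1 (1.73 ± 0.33) and Creb3l2 (1.03 ± 0.17), and 1 fell, Ppp1r15b (-0.64 ± 0.17), the constitutive partner of Ppp1r15a.

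Among other cytosolic chaperones 2 of 35 rose and 2 fell (median -0.02), both below the background. The small heat shock genes Hspb8 (-0.87 ± 0.17, with every tumor below every liver) and Hspb6 (-1.08 ± 0.34) fell as Hspb1 did. Those that rose were Hspa4l (0.79 ± 0.20) and Serpinh1 (0.72 ± 0.23). Serpinh1 was counted in this list, but it encodes a collagen chaperone of the ER and not of the cytosol. Among other mitochondrial chaperones and proteases 0 of 13 rose and 3 fell: Hspa9 (-0.78 ± 0.27), Dnaja3 (-0.68 ± 0.23) and Trap1 (-0.59 ± 0.19), with a median of -0.30 over the list. Among immediate-early genes the largest rises were those of Btg2 (3.03 ± 0.34), Ier3 (2.86 ± 0.45) and Fos (1.46 ± 0.33).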

How the data were processed

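The authors extracted poly-A RNA, sequenced it as 100-base paired ends, checked reads with FastQC, aligned them to GRCm38 (mm10), quantified genes with Salmon and expressed them as TPM. What was deposited is a whole-number score, described by the authors as raw counts but treated here as rounded TPM, since 882 of 900 values of 50 genes equalled the unrounded TPM within 0.5. TPM hold no read depth, so no counting intervals are given. The test planned for count data was replaced by one that suits TPM. The table holds 28442 genes, of which 12874 were 0 throughout, and 8 lines with an extra separator were repaired. Groups came from the sample labels. Ages and mice came from the study's table of animals.

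Each sample was scaled by the TMM method (trimming 30% by M and 5% by A). Genes at 1 or more in at least 6 samples were fitted as log2 values, pseudocount 1, with limma 3.58.1 (R 4.3.3, trended prior) and Benjamini-Hochberg adjustment. On simulated data, 150 of 200 changed genes and 2 unchanged ones were called in a tumor and liver comparison of 11478 genes. Where nothing was changed, 1 of 11340 was called. Correlations used scipy 1.17.1 and numpy 2.4.6. Tumors 11 and 12 were fitted as separate samples. All 44 genes are named, and from each related list the 3 highest and 3 lowest called genes. The genes and lists were chosen with earlier results of these data known. Alternatives were no scaling, median-of-ratios scaling, other filters, a pseudocount of 0.5, tag, age, a replicate block, sample weights, 1 value per mouse, single tags and leaving out samples; dropping liver 1 and tumor 2 together was added after the data were seen. Of the related and marker genes, 2 symbols were not matched.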

Additional observations from a re-analysis of the deposited data

Results flagged for a closer look

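In the livers, 15 of the 44 genes had 1 sample far from the others, judged by the gap between the extreme sample and its nearest neighbour as a share of the range of the 6 livers (Dixon's 95% limit), on deposited TPM. In all 15 that sample was liver 1, and it was the highest. About 1 in 20 genes pass by chance, or 2.2 of 44, and the genes are not independent. The rule was not run over all genes tested, so the count cannot be called particular to these 44. On scaled TPM liver 1 was the highest liver for 29.7% of all genes tested. Among ER chaperones the shares were 0.794 for Hspa5 (945 against 398 TPM in the next liver), 0.797 for Creld2 (71 against 24), 0.788 for Dnajb11 (69 against 28), 0.759 for Hyou1 (159 against 71), 0.756 for Manf (254 against 93), 0.735 for Sdf2l1 (76 against 26) and 0.64 for Dnajb9 (34 against 18). Among isomerases they were 0.657 for Pdia4 (178 against 90) and 0.654 for Pdia6 (228 against 122). Among transcription factors they were 0.822 for Xbp1 (247 against 104), 0.811 for Atf4 (161 against 58), 0.778 for Ddit3 (11 against 4) and 0.75 for Atf3 (4 against 1). Among cytosolic genes they were 0.701 for Hspa8 (2277 against 1181) and 0.643 for Hsph1 (21 against 12). On scaled TPM, examined after seeing the data, 7 of the 44 genes passed, all among these 15 (Dnajb11, Hyou1, Creld2, Xbp1, Atf3, Atf4 and Ddit3, with Atf3 just past the limit). The other 8 did not pass: Hspa5 (0.6246, just under the limit), Pdia4 (0.6024), Hspa8 (0.5804), Manf (0.5686), Sdf2l1 (0.5635), Hsph1 (0.5469), Dnajb9 (0.5) and Pdia6 (0.4195). Liver 1 had the highest scaling factor of the livers, 1.35, and the cause of its values was not tested. Groups of over 10 samples were not examined in this way.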

How the results depend on the processing

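The 44 genes gave 7 calls upward and 1 downward of 2190 over all genes. Without scaling they gave 2 and 1 of 1341, and the median over all genes moved by -0.1086. With the tag as covariate 4 were called upward, of 1177 over all genes, and Hspa5, Hsp90b1 and Atf3 lost their calls (adjusted p = 0.0611, 0.0524 and 0.0648). With age as covariate 5 were called upward, of 1084, and Hspa5 and Hsp90b1 lost theirs (adjusted p = 0.0537 and 0.0533). Sample weights gave 18 and 2 of 4512, E19 samples alone 4 and 1 of 1345, E20 samples alone 0 and 0 of 405, and leaving out liver 1 and tumor 2 gave 14 and 2 of 3582. Leaving out 1 sample gave 3 to 10 upward, 1 to 2 downward and 1683 to 3083 over all genes. The replicate block, over livers and tumors 1 to 6, gave 3 upward and 1376 in all, and fitting these 12 samples unblocked gave 3 and 1225. Deviations of samples with the same number had a mean r of 0.1746 (-0.106 to 0.4248 over 6 pairs, 3 of 6 closest to their own number), against -0.0349 over 30 pairs with different numbers; not every pair was over 0.1, and no source says that a number marks a shared origin, so the numbers were not taken as pairs. Among the 44 genes, 11 changed the sign of their difference under at least 1 setting (48 gene and setting pairs, 8 of them without scaling), all not called in either fit. Without scaling, the 5 gene pairs that had not passed in the main fit did so: Trib3 with Asns (r = 0.742), Hspa1b with Dnajb1 (0.735), Hspa5 with Trib3 (0.723), Ddit3 with Trib3 (0.672) and Hspa5 with Hspa1b (0.594). Leaving out 1 tumor gave 0.622 to 0.909 for Hspa5 with Sdf2l1 and 0.392 to 0.744 for Trib3 with Asns, which passed only without tumor 6. In the related lists, no scaling gave 3 upward ER folding factors, 0 downward degradation genes, 1 upward and 0 downward sensors and factors, 2 downward ATF4 targets, 0 upward and 1 downward cytosolic chaperones and 0 downward mitochondrial genes. Without tumor 2 there were 11 upward ER folding factors, 1 upward degradation gene, 4 upward and 2 downward sensors and factors and 4 downward cytosolic chaperones. The cause of these changes was not tested. Rounding to whole TPM limits genes of a few TPM, such as Atf3, Ddit3 and Hspa1b, and tumor 2 most.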
